A study of Mus musculus with 6 samples.

Results

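Droplet lipases and their regulators are the enzymes that cut stored fat out of a cell's lipid droplets and the proteins that speed or brake them. 8 genes were taken by name from the 21899 genes of each file, namely Pnpla2, Lipe and Mgll, which act in sequence, the activator Abhd5, the inhibitors G0s2 and Hilpda, the related droplet protein gene Pnpla3, and the lysosomal lipase gene Lipa. All 8 had a row in every file, and all 8 passed the filter on low counts that left 12845 genes for testing. Liver RNA came from 6 C57BL/6 mice, an inbred laboratory strain, 3 labelled as fed CSAA (in this field the choline-supplemented, amino acid-defined control feed) and 3 labelled as fed CDAA (its choline-deficient counterpart). Mice entered at 6 weeks of age, were acclimatised for 1 week, and those given CDAA were moved to it over 1 week of mixed feed. Livers were taken in week 6 after that change. No genetic alteration is named for either group, and the labels do not state the sex of the mice.

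A lipid droplet stores triglyceride behind a coat of perilipin proteins. Adipose triglyceride lipase, the product of Pnpla2, removes the first fatty acid and leaves diacylglycerol, hormone-sensitive lipase (Lipe) removes the next, and monoacylglycerol lipase (Mgll) releases the last together with glycerol. The first step needs the co-activator encoded by Abhd5 for full activity and is blocked by the small proteins encoded by G0s2 and Hilpda. Fat that reaches the lysosome is instead split by lysosomal acid lipase (Lipa). In liver this machinery supplies fatty acids for oxidation and for lipoprotein assembly.

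The libraries held between 14580676 and 17367173 reads over genes, and hepatocyte transcripts dominated in each: 20 hepatocyte markers summed to between 105936 and 155949 CPM (counts divided by the library total in the usual unit, with the totals scaled by the trimmed mean of M values, TMM). Other cell types differed between the groups. The 20 monocyte and macrophage markers summed to 1562 to 2285 CPM in CSAA and 621 to 793 CPM in CDAA, with 15 of them lower and 0 higher in CDAA by the test used below. At an unadjusted p under 0.05, and by DESeq2, 0 were higher as well. The 12 stellate cell and fibroblast markers summed to 1123 to 1499 CPM in CSAA and 459 to 762 CPM in CDAA, with 8 lower. Of the tested markers, 3 of 10 endothelial, 5 of 9 lymphocyte and 2 of 2 neutrophil genes were lower too. Of 20 hepatocyte markers 2 were higher and 1 was lower. By the same test 4.25% of all genes were called higher and 10.5% lower. At an unadjusted p under 0.05, for which no share of all genes is given here, 13 hepatocyte markers were higher and 1 was lower. DESeq2 called 15 of these markers higher and 1 lower, against 8.7% and 12.7% of all genes. The median log2 fold change (CDAA minus CSAA) of the hepatocyte markers was 0.45, against 0.00 over all genes tested. The CDAA feed is known in mice as a model of liver inflammation and fibrosis, in which macrophage and stellate cell markers rise. Most of the values here run the other way. In the stellate list Acta2, Des and Rgs5 had positive log2 fold changes (0.89, 0.39 and 0.08) and did not pass. Whether the group labels were exchanged was not tested. CSAA and CDAA therefore stand for the libraries so labelled throughout, and an exchange would turn every direction given. In whole tissue, fewer cells of a type and less RNA per cell cannot be told apart. The part of these differences in the values below was not tested. CDAA replicate 1 also carried RNA of other tissues: its 18 pancreatic acinar markers summed to 2455 CPM, against at most 15.2 CPM elsewhere, and its 12 striated muscle markers to 322.5 CPM, against at most 1.62 CPM elsewhere.

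Of the 8 genes, Pnpla3 and Abhd5 were higher in the libraries labelled CDAA, 6 did not pass, and 0 were lower (edgeR quasi-likelihood test, Benjamini-Hochberg adjusted p under 0.05 over all 12845 genes). At an unadjusted p under 0.05 the counts were 3 higher, the third being Mgll, and 0 lower. The share of all genes at that threshold is not given here, so these counts cannot be set against it. DESeq2 called the same 3 higher and 0 lower, where it called 8.7% of all genes higher and 12.7% lower. Among all genes tested 4.25% were called higher and 10.5% lower. Neither 2 of 8 higher nor 0 of 8 lower was tested against those shares, and so few genes cannot settle either. The count of 2 higher ran from 0 to 2 when each library was left out in turn. In those fits the share of all genes called higher ran from 0.588% to 5.25%. The median log2 fold change (CDAA minus CSAA) was 0.16 over the 8 genes and 0.00 over all genes tested. Pnpla3, Abhd5 and Mgll had groups that did not overlap, each with all CDAA libraries above all CSAA libraries in TMM-scaled CPM, which held for 15.6% of all genes tested. None lay wholly lower in CDAA, as 20.4% of all genes did. On the deposited FPKM, which carry no TMM factors, 0 of the 8 genes lay wholly higher in CDAA, against 3.18% of all genes. There 1, G0s2, lay wholly lower, against 39.7% of all genes.

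**Figure D1:**
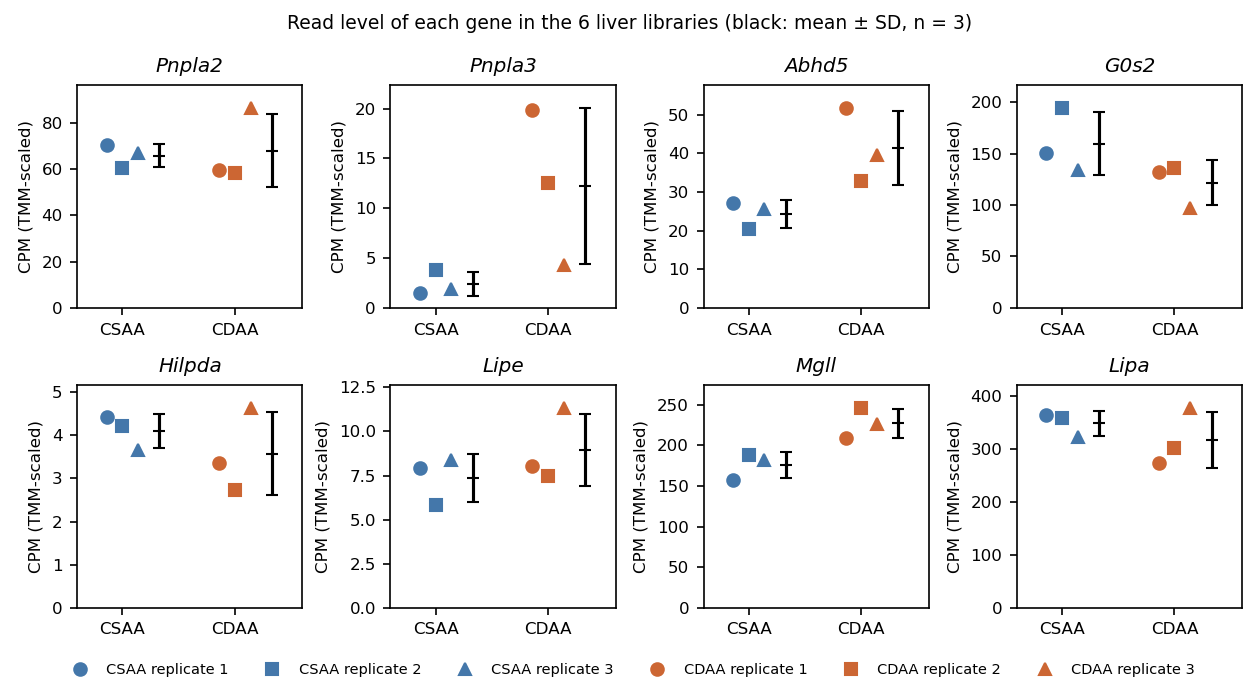
Read level of each gene in CPM on TMM-scaled totals (vertical axes, each from 0) in the 3 CSAA (blue) and 3 CDAA (orange) libraries, with shapes for replicates and black marks for mean ± SD (n = 3). Pnpla3, Abhd5 and Mgll have every CDAA point above every CSAA point, and the CDAA points of Pnpla3 run from 4.27 to 19.9 CPM.

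Levels of different genes were set side by side only per length, in the deposited FPKM, which divide the reads of a gene by its length and by the library total. G0s2, the inhibitor of the first step, had the highest level per length in all 6 libraries, from 104 to 244 FPKM. Lipa (36.5 to 63.0 FPKM) and Mgll (36.3 to 42.6 FPKM) followed and overlapped with each other. Pnpla2, the triglyceride lipase that G0s2 inhibits, came next in every library at 17.1 to 27.3 FPKM, above all values of the other 4 genes. Abhd5 (3.75 to 7.81 FPKM) and Hilpda (2.19 to 4.70 FPKM) overlapped, and Pnpla3 overlapped with both and with Lipe because it ran from 1.15 to 11.6 FPKM. Lipe, which is best known from fat cells, was the lowest or next to lowest gene in every library, at 1.08 to 1.79 FPKM, and all its values were below those of Hilpda. As a share of the summed FPKM of the 8 genes, G0s2 took 57.1% to 64.9% in CSAA and 43.5% to 54.7% in CDAA.

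**Figure D2:**
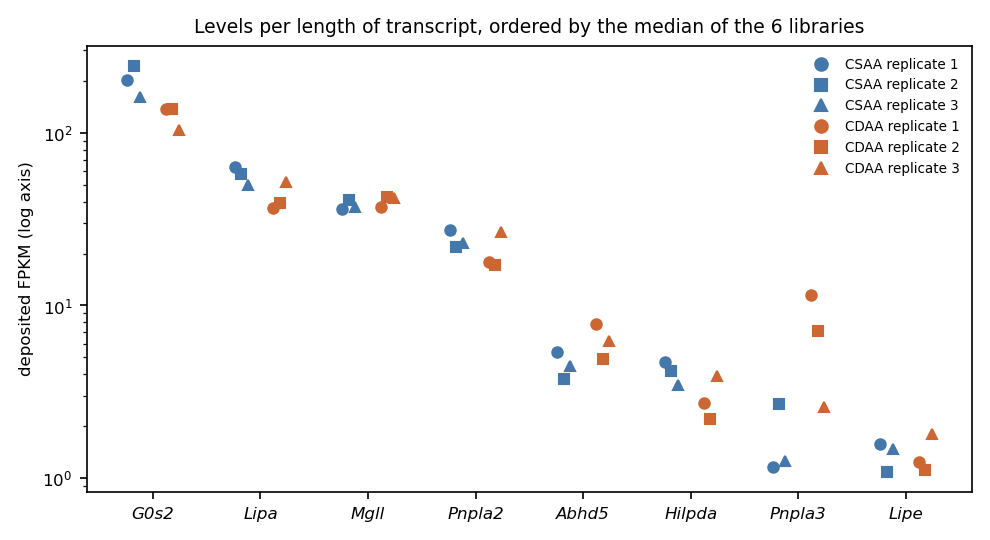
Deposited FPKM on a log axis for the 8 genes, ordered by their median over the 6 libraries, with CSAA in blue, CDAA in orange and shapes for replicates. G0s2 lies above all other genes in every library, and Pnpla3 covers the widest range, from 1.15 to 11.6 FPKM.

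The triglyceride lipase gene Pnpla2 (ENSMUSG00000025509, chromosome 7, 141035111 to 141040656, plus strand, coordinates as the files give them with no build named) was at 70.4, 60.3 and 66.9 CPM in CSAA replicates 1 to 3 and at 59.6, 58.4 and 86.3 CPM in CDAA replicates 1 to 3. CDAA replicate 3 was the highest of the 6 and the other CDAA libraries the lowest, so the groups overlapped. The log2 fold change was 0.05 ± 0.16 (SE, edgeR adjusted p = 0.877), with a 95% interval from -0.33 to 0.42. That interval holds on the TMM scale only. A change of more than 1.34-fold upward or to less than 0.798 of the CSAA level lay outside it. With totals scaled to hepatocyte markers instead, the log2 fold change was -0.37.

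The other enzymes of the sequence did not pass either. Lipe (ENSMUSG00000003123, chromosome 7, 25078952 to 25098135, minus strand), which cuts diacylglycerol, was at 7.92, 5.82 and 8.39 CPM in CSAA and at 8.07, 7.48 and 11.3 CPM in CDAA. Its groups overlapped, again with CDAA replicate 3 highest (log2 0.28 ± 0.23, edgeR adjusted p = 0.456, 95% interval -0.25 to 0.81). Mgll (ENSMUSG00000033174, chromosome 6, 88701394 to 88805342, plus strand), which also breaks down the endocannabinoid 2-arachidonoylglycerol, was at 157, 188 and 182 CPM in CSAA and at 209, 245 and 227 CPM in CDAA. All 3 CDAA libraries were above all 3 CSAA libraries on this scale, and the spread within each group was small, with the highest library 1.19 times the lowest in CSAA and 1.17 times in CDAA. Its log2 fold change of 0.37 ± 0.12 missed the threshold in edgeR (adjusted p = 0.0677) and passed in DESeq2 (log2 0.39, adjusted p = 0.0137).

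Abhd5 (ENSMUSG00000032540, chromosome 9, 122180673 to 122210589, plus strand), the co-activator of the first lipase, rose. It was at 27.2, 20.3 and 25.7 CPM in CSAA and at 51.6, 32.9 and 39.7 CPM in CDAA. On this scale every CDAA library was above every CSAA library, the nearest pair being CSAA replicate 1 and CDAA replicate 2. On the deposited FPKM that pair changed places, at 5.35 and 4.87 FPKM, and the groups overlapped. The mean went from 24.4 ± 3.61 to 41.4 ± 9.47 CPM (SD, n = 3 each), a 1.70-fold difference with a 95% interval of 1.26 to 2.27 (log2 0.76 ± 0.18 SE, edgeR adjusted p = 0.0308). Without CSAA replicates 1, 2 or 3 or CDAA replicate 1 it did not pass (edgeR adjusted p = 0.0728, 0.0936, 0.0689 and 0.0752), with a log2 fold change between 0.58 and 0.91 in the 6 fits that left out a library.

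Pnpla3 (ENSMUSG00000041653, chromosome 15, 84052038 to 84071437, plus strand) encodes a droplet protein of the patatin family, to which the Pnpla2 product also belongs. In mouse and human liver it is known to be induced by the lipogenic factor SREBP-1c. It had the largest difference of the 8. It was at 1.52, 3.79 and 1.86 CPM in CSAA, from 31, 71 and 30 reads, and at 19.9, 12.5 and 4.27 CPM in CDAA, from 261, 169 and 60 reads. CDAA replicate 3 was close to the highest CSAA library, and the other CDAA libraries were well above both. The fold difference was 5.08, with a 95% interval of 2.05 to 12.6 (log2 2.35 ± 0.57 SE, edgeR adjusted p = 0.0312). The call was lost when CSAA replicate 1, CSAA replicate 3, CDAA replicate 1 or CDAA replicate 2 was left out (edgeR adjusted p = 0.119, 0.0910, 0.0841 and 0.0788). Its level within CDAA differed 4.66-fold between the highest and the lowest library, the widest spread of the 8 genes in that group. On the deposited FPKM its groups touched, since CSAA replicate 2 was at 2.69 and CDAA replicate 3 at 2.57 FPKM.

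Because several of these genes, among them Pnpla3, Lipe, Mgll and Pnpla2, are transcribed in fat cells, transcripts of adipocytes were set beside these values. Adipoq, the adipocyte hormone adiponectin, had 0 reads in the CSAA libraries and in CDAA replicate 3, which allows up to 3 reads in each, and had 39 and 7 reads in CDAA replicates 1 and 2. Plin1, the droplet coat protein of adipocytes, had 0, 0 and 1 reads in CSAA and 66, 10 and 0 reads in CDAA replicates 1 to 3. CDAA replicates 1 and 2, in that order, also had the highest Pnpla3. Abhd5 was highest in CDAA replicate 1 (51.6 CPM), followed by CDAA replicate 3 (39.7 CPM) and CDAA replicate 2 (32.9 CPM). In CDAA replicates 1 and 2, Lipe (8.07 and 7.48 CPM) lay within its CSAA range. There Pnpla2 (59.6 and 58.4 CPM) lay below its CSAA range, G0s2 (132 and 136 CPM) near the lower end and Mgll (209 and 245 CPM) above. Over all 14 adipocyte markers, several of which other liver cells also transcribe, the sum was 184 to 245 CPM in CSAA and 63.2 to 111 CPM in CDAA. The largest part of it in every library was Lpl, the lipoprotein lipase gene. Lpl was at 196, 123 and 131 CPM in CSAA and at 46.2, 26.6 and 54.4 CPM in CDAA, so the sum does not measure adipocyte RNA alone. Between 5 and 6 of the 14 were at 0 reads in each CSAA library and 0, 3 and 7 in CDAA replicates 1 to 3. Of the 5 markers tested, 1 was lower in CDAA, again Lpl. The part of adipocyte RNA in the values of Pnpla3, Abhd5 or the other genes was not tested. Without CDAA replicates 1 and 2 together, which leaves CDAA replicate 3 alone and assumes that it varies like the CSAA libraries, the log2 fold change was 0.84 for Pnpla3 (edgeR adjusted p = 0.412) and 0.71 for Abhd5 (edgeR adjusted p = 0.0893).

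The 250 bases before the start site are shown for Pnpla3 and Abhd5, the pair that passed, as RefSeq gives them on GRCm38.p6, a build whose coordinates differ from those of the files. Capitals mark matches to the motifs searched. The window of Pnpla3 is chr15:84167566-84167815 and that of Abhd5 is chr9:122351366-122351615, both on the plus strand.
Pnpla3: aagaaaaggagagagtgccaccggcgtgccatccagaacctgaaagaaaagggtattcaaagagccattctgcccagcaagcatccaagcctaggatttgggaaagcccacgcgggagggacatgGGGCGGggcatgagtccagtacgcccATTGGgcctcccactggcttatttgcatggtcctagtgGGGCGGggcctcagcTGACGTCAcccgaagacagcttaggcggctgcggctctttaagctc
Abhd5: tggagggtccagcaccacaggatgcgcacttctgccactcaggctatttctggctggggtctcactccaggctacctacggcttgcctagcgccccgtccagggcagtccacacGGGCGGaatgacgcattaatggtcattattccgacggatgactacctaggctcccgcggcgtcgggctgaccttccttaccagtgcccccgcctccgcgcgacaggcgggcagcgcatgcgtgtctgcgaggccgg
7 motifs were searched on both strands. TCACNCCAC is a sterol response element, and CACGTG is an E-box. The core of a hypoxia response element is ACGTG, which lies within that E-box. CCAAT is a CAAT box. The GC box is GGGCGG, the FoxO core is TGTTTAC, and a cyclic AMP response element is TGACGTCA. In Pnpla3, GGGCGG began 125 and 61 bases before the start site, CCAAT on the minus strand 99 bases before it and TGACGTCA 46 bases before it. In Abhd5, GGGCGG began 136 bases before the start site. Of the 32851 windows of this length in the table, the GC box was in 32.7%, CCAAT in 33.8%, the cyclic AMP response element in 1.55%, the sterol response element in 1.05%, the E-box in 6.02%, the hypoxia core in 16.6% and the FoxO core in 3.17%. These matches describe letters in the windows and not binding.

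The inhibitor genes did not pass. G0s2 (ENSMUSG00000009633, chromosome 1, 192954469 to 192955525, minus strand) was at 151, 194 and 134 CPM in CSAA and at 132, 136 and 96.8 CPM in CDAA. CDAA replicate 2 lay just above CSAA replicate 3, so the groups overlapped. The log2 fold change was -0.39 ± 0.18 (SE, edgeR adjusted p = 0.181, 95% interval -0.80 to 0.02). With no scaling factors the fold change was -0.68 and passed (edgeR adjusted p = 0.0285), and on the deposited FPKM, which carry no such factors, all CDAA libraries (104 to 138 FPKM) were below all CSAA libraries (161 to 244 FPKM), as held for 39.7% of genes tested. G0s2 lies wholly within the span of Lamb3, a laminin gene on the opposite strand. Lamb3 had 84 to 143 reads against 1362 to 3635 for G0s2, and the strand setting of the counting is not given in the sources used here. Hilpda (ENSMUSG00000043421, chromosome 6, 29272487 to 29275445, plus strand), known to be induced by hypoxia and fatty acids, was at 4.43, 4.22 and 3.67 CPM in CSAA and at 3.35, 2.74 and 4.62 CPM in CDAA. CDAA replicate 3 was the highest of all 6 and CDAA replicate 2 the lowest (log2 -0.20 ± 0.27, edgeR adjusted p = 0.658, 95% interval -0.81 to 0.41). It rested on 37 to 90 reads per library.

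Lipa (ENSMUSG00000024781, chromosome 19, 34469718 to 34504874, minus strand), the acid lipase of lysosomes in hepatocytes and macrophages, had the most reads of the 8 genes. It was at 365, 359 and 323 CPM in CSAA and at 275, 302 and 377 CPM in CDAA. The groups overlapped, with CDAA replicate 3 above every other library and CDAA replicates 1 and 2 below every other (log2 -0.13 ± 0.14, edgeR adjusted p = 0.570, 95% interval -0.46 to 0.19). In TMM-scaled CPM, Pnpla2, Lipe, Hilpda and Lipa all had their highest value of the 6 libraries in CDAA replicate 3. On the deposited FPKM this held for Lipe, while CSAA replicate 1 was highest for Pnpla2 (27.3 against 26.7 FPKM), Hilpda (4.70 against 3.91 FPKM) and Lipa (63.0 against 52.0 FPKM). On both scales CDAA replicate 3 was lowest of its group for Pnpla3 and lowest of all for G0s2.

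The sign of the difference depended on the scaling of the libraries for Pnpla2, Lipe and Mgll, and was the same under all 5 scalings for Pnpla3, Abhd5, G0s2, Hilpda and Lipa. With no factors the median of all genes moved, on the log2 scale, by -0.28, and with factors taken from 20 hepatocyte markers it moved by -0.43, so every value above is relative to the TMM scale. With no factors 1.07% of all genes were called higher and 21.4% lower, and the fold changes were 0.48 for Abhd5 (edgeR adjusted p = 0.113), 2.06 for Pnpla3 (edgeR adjusted p = 0.0297), 0.09 for Mgll, 0.00 for Lipe and -0.23 for Pnpla2. Scaled to hepatocyte markers, Pnpla3 remained higher (log2 1.89, edgeR adjusted p = 0.0242), Abhd5 did not pass (log2 0.34, edgeR adjusted p = 0.184), and G0s2 and Lipa were called lower (log2 -0.84 and -0.56, edgeR adjusted p = 0.0139 and 0.0445). Mgll, Lipe and Pnpla2 turned to -0.055, -0.13 and -0.37 on that scale and did not pass. There 0.670% of all genes were called higher and 33.1% lower. The share of calls that were higher was 28.7% with TMM, 4.75% with no factors, 1.98% with hepatocyte markers and 40.7% in DESeq2.

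**Figure D3:**
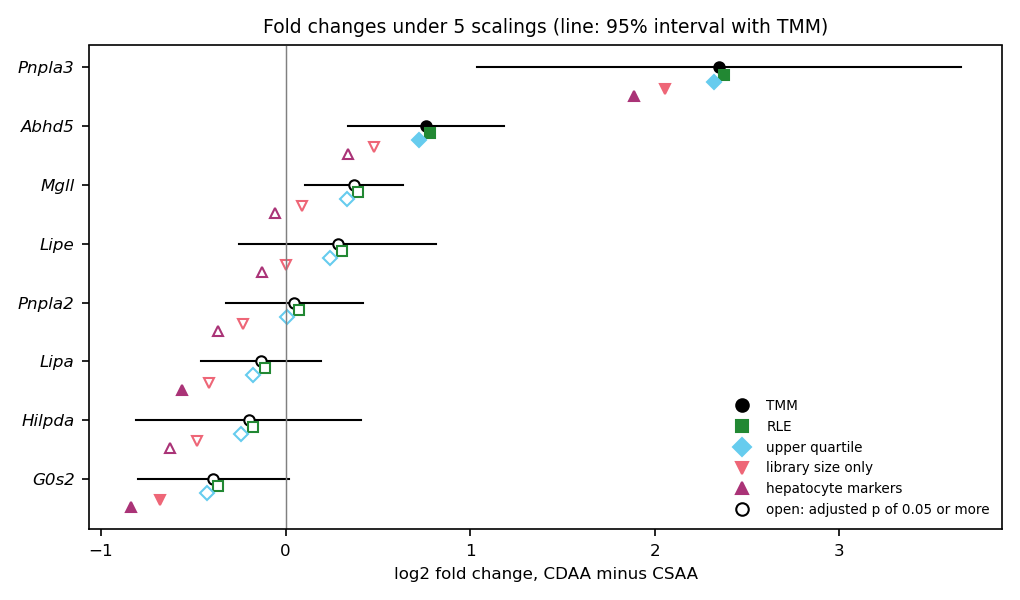
Log2 fold change (CDAA minus CSAA) of each gene under 5 library scalings, with filled marks where the edgeR adjusted p was under 0.05 and a line for the 95% interval with TMM. Pnpla3 is filled under all 5 scalings, Abhd5 is open under library size only and hepatocyte markers, and G0s2 is filled under those 2.

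Ratios of 2 genes within a library do not depend on its scaling, and 8 such pairs were compared by exact two-sided permutation tests of log2 FPKM ratios, for which 0.1 is the smallest p that 3 against 3 libraries can give. The ratio of the lipase gene Pnpla2 to its co-activator gene Abhd5 was 5.10, 5.85 and 5.14 in CSAA and 2.28, 3.50 and 4.29 in CDAA. All CDAA libraries were below all CSAA libraries, with a mean log2 difference of -0.72 (exact p = 0.1, adjusted over the 8 pairs 0.32). The ratio of Lipe to Pnpla2 was 0.0577, 0.0494 and 0.0643 in CSAA and 0.0695, 0.0658 and 0.0672 in CDAA. These groups did not overlap either, with a difference of 1.19-fold (exact p = 0.1, adjusted 0.32). The ratio of Pnpla2 to its inhibitor gene G0s2 was 0.135, 0.0897 and 0.144 in CSAA and 0.130, 0.124 and 0.257 in CDAA. CDAA replicate 3 stood above the rest and the other CDAA libraries lay within the CSAA range (log2 difference 0.42, exact p = 0.6). Pnpla3 stood at 0.0423, 0.122 and 0.0543 of the Pnpla2 level in CSAA and at 0.650, 0.418 and 0.0964 in CDAA, with CDAA replicate 3 inside the CSAA range (log2 difference 2.18, exact p = 0.2). The ratios of Pnpla2 to Hilpda, Mgll to Pnpla2, Lipa to Pnpla2 and G0s2 to Hilpda overlapped between the groups (exact p from 0.2 to 0.9). No pair could have passed a threshold of 0.05, before or after adjustment, since 0.1 is the smallest exact p.

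**Figure D4:**
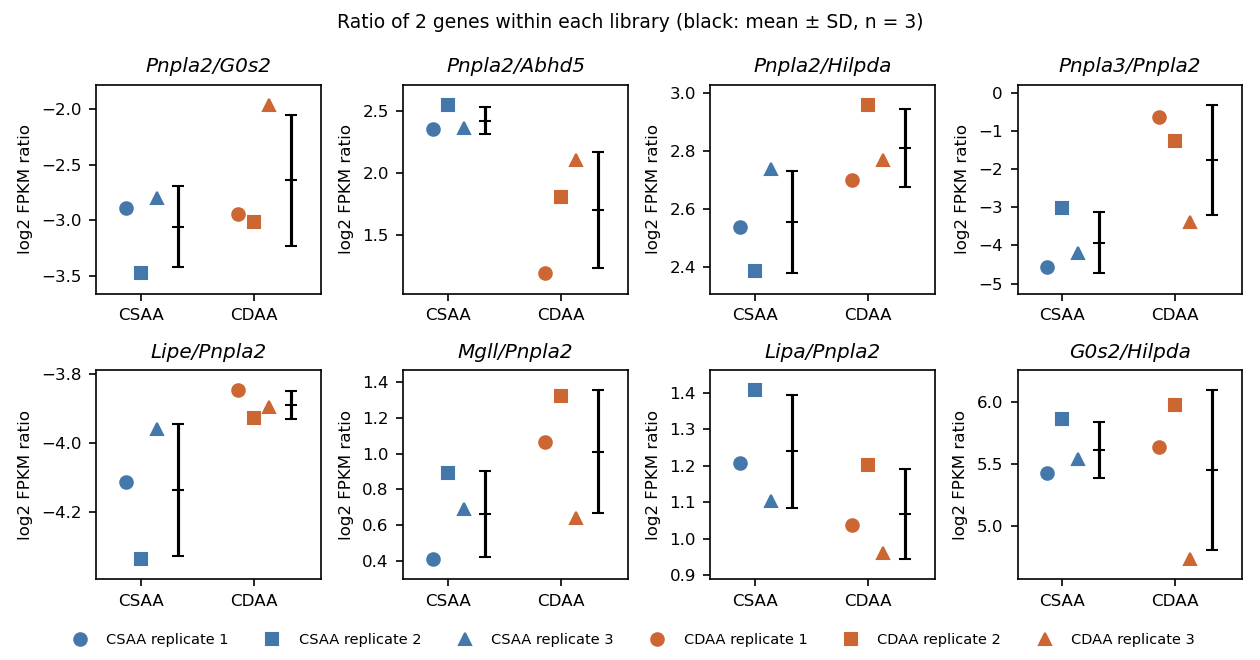
Log2 ratio of the deposited FPKM of 2 genes within each library for the 8 pairs, with CSAA in blue, CDAA in orange, shapes for replicates and black marks for mean ± SD (n = 3). The groups are apart for Pnpla2/Abhd5 and Lipe/Pnpla2 and overlap for the other 6 pairs.

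Lists of related genes were read from the same fit, and each count is to be set against the shares among all genes. These were 4.25% higher and 10.5% lower in edgeR, and 8.7% higher and 12.7% lower in DESeq2. No such share is given here for counts at an unadjusted p under 0.05. Of 23 tested other hydrolases of neutral lipid and phospholipid, 9 rose and 1 fell, with a median log2 fold change of 0.43 against 0.00 over all genes. The count of 9 was 2 without CSAA replicate 1, 5 without CSAA replicate 2 and 3 without CDAA replicate 2. In those fits 0.588%, 1.25% and 1.2% of all genes were called higher. Ces2a (log2 1.95 ± 0.25, edgeR adjusted p = 0.00318) and Ces1e (log2 1.24 ± 0.13, edgeR adjusted p = 0.00167), both carboxylesterases, had the smallest adjusted p among those that rose. Ces1d, which encodes the triacylglycerol hydrolase of the hepatocyte endoplasmic reticulum, rose from 246 ± 51.5 to 651 ± 216 CPM (SD, n = 3 each; edgeR adjusted p = 0.0129). Reads of the Ces genes could be split between near-identical copies. Ldah, a droplet-associated hydrolase gene, rose (log2 0.40 ± 0.11, edgeR adjusted p = 0.0428), but stood at -0.025 when scaled to hepatocyte markers. The gene that fell was Lpl, the lipase that acts in capillaries (log2 -1.82 ± 0.28, edgeR adjusted p = 0.00614).

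Of 18 tested genes for droplet coat proteins and other gatekeepers of the lipases, 0 rose and 1 fell (median 0.04). At an unadjusted p under 0.05, 3 were higher and 1 was lower, and DESeq2 called 2 higher and 1 lower. Cidec, which promotes droplet fusion, fell (log2 -1.19 ± 0.32, edgeR adjusted p = 0.0428). Plin2, the main coat protein of hepatocyte droplets, averaged 682 ± 31.3 CPM (SD, n = 3) in CSAA libraries and 870 ± 81.5 CPM in the CDAA libraries. All CDAA libraries were above all CSAA libraries in TMM-scaled CPM, as held for 15.6% of all genes tested. On the deposited FPKM Plin2 overlapped between the groups. It did not pass (log2 0.35 ± 0.12, edgeR adjusted p = 0.0981; -0.068 scaled to hepatocyte markers). Plin5, which binds Pnpla2 and Abhd5 proteins at droplets, had a log2 value of 0.05 ± 0.20 (edgeR adjusted p = 0.909; -0.23 with no factors), and was highest in CDAA replicate 3 at 60.9 CPM against 33.7 to 46.1 CPM in the other 5 libraries. Of 25 tested genes of hormonal control, 1 rose and 0 fell (median 0.14). At an unadjusted p under 0.05, 6 were higher and 1 was lower, and DESeq2 called 3 higher and 1 lower. By edgeR the gene that rose was Foxo1, a transcription factor restrained by insulin (log2 0.51 ± 0.09, edgeR adjusted p = 0.0110).

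Of 27 tested lysosomal and lipophagy genes, the setting in which Lipa works, 1 rose and 4 fell (median -0.07), close to the 4.25% and 10.5% of all genes. Without any 1 of the 6 libraries 0 rose, where 0.588% to 5.25% of all genes were called higher. Without CDAA replicate 1, 1 fell, where 7.27% of all genes were called lower. Ppt1, a lysosomal thioesterase gene (log2 -0.61 ± 0.09, edgeR adjusted p = 0.00614), and Ctsb, the cathepsin B gene (log2 -0.75 ± 0.15, edgeR adjusted p = 0.0145), fell, and Scarb2, a lysosomal membrane protein gene, rose (log2 0.38 ± 0.10, edgeR adjusted p = 0.0395) but stood at -0.043 when scaled to hepatocyte markers. Tfeb, a transcription factor that drives lysosomal genes, did not pass (log2 -0.07 ± 0.17, edgeR adjusted p = 0.814). Macrophages transcribe many of these genes, and the macrophage sums given above were lower in CDAA, and their part was not tested. Of 12 tested genes of monoacylglycerol and endocannabinoid turnover, 0 rose and 3 fell (median -0.35). At an unadjusted p under 0.05, 2 were higher and 6 lower, and DESeq2 called 2 higher and 4 lower. Pla2g4a, a phospholipase gene (log2 -1.06 ± 0.23, edgeR adjusted p = 0.0228), and Naaa, a lysosomal amidase gene (log2 -0.95 ± 0.23, edgeR adjusted p = 0.0310), had the smallest adjusted p. Abhd6, another monoacylglycerol lipase gene, did not pass (log2 0.71 ± 0.22, edgeR adjusted p = 0.0659).

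**Figure D5:**
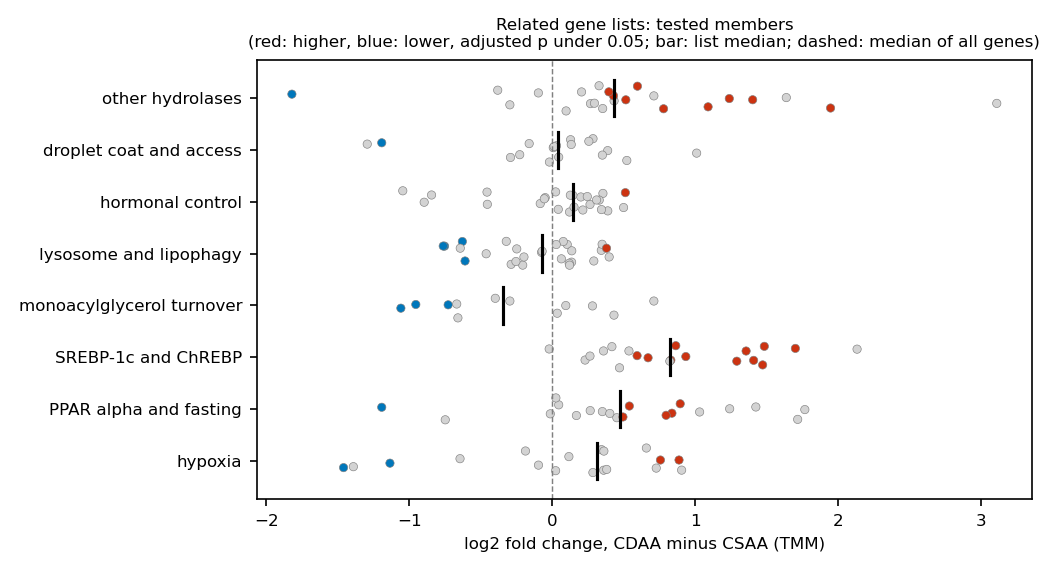
Log2 fold changes (CDAA minus CSAA, TMM) of the tested members of 8 related gene lists, 1 point a gene, with red for genes called higher, blue for genes called lower, grey for the rest, a bar for the list median and a dashed line for the median of all genes. The SREBP-1c and ChREBP list has the highest median, 0.83, and the list of monoacylglycerol turnover the lowest, -0.35.

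Among the 8 related lists, the lipogenic programme to which Pnpla3 belongs had the most calls. Of 20 tested SREBP-1c and ChREBP genes, 11 rose and 0 fell (median 0.83; 0 were lower at an unadjusted p under 0.05 or by DESeq2), and Pnpla3 is not in that list. The count of 11 was 3, 6 and 6 without CSAA replicates 1, 2 and 3 in turn, and 5 and 4 without CDAA replicates 1 and 2 in turn. In those fits, in that order, 0.588%, 1.25%, 3.04%, 1.71% and 1.2% of all genes were called higher. Me1, malic enzyme (log2 1.49 ± 0.12, edgeR adjusted p = 0.00121), and Scd1, stearoyl-CoA desaturase (log2 1.70 ± 0.26, edgeR adjusted p = 0.00589), rose, as did Mlxipl, which encodes ChREBP (log2 0.59 ± 0.16, edgeR adjusted p = 0.0430). Srebf1, which encodes SREBP-1, did not pass (log2 0.54 ± 0.51, edgeR adjusted p = 0.527) and ranged from 126 to 379 CPM in CSAA libraries and from 170 to 634 CPM in CDAA libraries. The mean deviation of the 20 genes from their own averages, in log2 CPM, was -0.73, -0.21 and -0.38 in CSAA replicates 1 to 3 and 0.59, 0.62 and 0.11 in CDAA replicates 1 to 3. Pnpla3 shared that order except for CDAA replicates 1 and 2: CDAA replicate 3 was lowest of its group and CSAA replicate 2 highest of its group in both. Part of that order is the difference between the groups already given, and a link between Pnpla3 and the list was not tested.

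Of 20 tested PPAR alpha and fasting genes, 5 rose and 1, Cidec, fell (median 0.47). The count of 5 was 0 without CSAA replicate 1, 0 without CSAA replicate 2, 3 without CSAA replicate 3 and 1 without CDAA replicate 2. In those fits 0.588%, 1.25%, 3.04% and 1.2% of all genes were called higher. Fabp1, the liver fatty acid binding protein gene (log2 0.90 ± 0.18, edgeR adjusted p = 0.0160), and Creb3l3, a fasting-induced transcription factor gene (log2 0.54 ± 0.12, edgeR adjusted p = 0.0218), had the smallest adjusted p. The mean log2 deviation of this list was 0.81 in CDAA replicate 3 and at most 0.01 in the other 5 libraries. In TMM-scaled CPM Pnpla2, Hilpda, Lipe and Lipa were also highest in CDAA replicate 3, and on the deposited FPKM only Lipe was. A link between this list and these genes was not tested. Of 18 tested hypoxia-inducible genes, 2 rose and 2 fell (median 0.32). DESeq2 called 8 higher and 2 lower, and at an unadjusted p under 0.05 there were 8 higher and 3 lower. Pdk1 (log2 0.89 ± 0.17, edgeR adjusted p = 0.0140) and Epas1 (log2 0.76 ± 0.15, edgeR adjusted p = 0.0172), which encodes a hypoxia-inducible factor, rose. Hk2 (log2 -1.14 ± 0.24, edgeR adjusted p = 0.0187), a hexokinase gene, and Adm (log2 -1.46 ± 0.32, edgeR adjusted p = 0.0210), the adrenomedullin gene, fell. Vegfa, a vascular growth factor gene, did not pass (log2 0.38 ± 0.13, edgeR adjusted p = 0.0918; -0.037 scaled to hepatocyte markers).

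The tested genes most like each of the 8 across the 6 libraries were picked by Pearson correlation of log2 CPM, as a description only, since with 6 points and 12845 genes high values are frequent: between 21 and 166 genes had a correlation over 0.95 with a given gene. The 3 closest to Pnpla3 were Cox11, Sub1 and Yme1l1 (r = 0.995, 0.994 and 0.991). Those closest to Abhd5 were Mrps17, Sbno1 and Dcaf10 (r = 0.995, 0.988 and 0.986). Those closest to Pnpla2 were Ube2m, B4galt5 and Tmco6 (r = 0.988, 0.987 and 0.986), and those closest to G0s2 were Lims1, Mms22l and Rrm2 (r = 0.998, 0.984 and 0.983). For Mgll they were Zswim5, Gstt3 and Atad3a, for Lipa Kctd2, Ppfibp2 and Hcfc1, for Lipe Ddc, Foxo4 and Cyp4f17, and for Hilpda Mapk6, Col9a3 and Ubqln2. The points share libraries and depth, and none of these 24 genes passed the test between groups (edgeR, lowest adjusted p = 0.0656).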

How the data were processed

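Liver RNA of 6 mice was sequenced, 3 per group, 1 library a mouse. The authors deposited read counts per gene and FPKM for 21899 genes in each library. Per the submitters' processing notes the tools were HISAT2 2.0.5, cutadapt 1.15, DESeq 1.30.0 and HTSeq 0.9.1, with mm9 as well as mm10 named as a build. For the strand setting and multi-mapping reads the sources used here give nothing. The deposited FPKM equalled the count divided by gene length and library total, in the usual units, within a relative tolerance of 0.001. Of 21795 gene identifiers found in GENCODE M21, coordinates were equal to GRCm38 for 511 and differed for 21284, so the positions given are those of the files.

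The test on counts was that of edgeR 4.0.16 (R 4.3.3, filterByExpr with a minimum count of 10, TMM factors, quasi-likelihood F test, Benjamini-Hochberg adjustment over 12845 genes, threshold 0.05). TMM factors ran from 0.883 to 1.17, and 3 reads, the limit that a count of 0 allows, came to 0.173 to 0.206 CPM. This floor and the p-values cover counting error and the spread between these mice only. Ratios of FPKM were compared with exact permutation tests (scipy 1.17.1). The script was tested on simulated data. Alternatives were RLE, upper-quartile, absent and hepatocyte marker factors, no filter, DESeq2 1.42.0, a replicate block and each library left out. Leaving out CDAA replicates 1 and 2 together was added after adipocyte transcripts had been seen there.

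The 8 genes and the 18 lists (310 entries, 2 without a row of their own and 2 matched by synonym) were chosen with earlier results of these data known. Genes named from the lists were the pair with the smallest adjusted p in each direction, and a fixed set. The genes Lamb3, Acta2, Des, Rgs5, Pnlip, Pnliprp1 and Cel were named after their values were seen. Promoter windows of all 8 genes were found in the RefSeq table.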

Additional observations from a re-analysis of the deposited data

How the results depend on the processing

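With no scaling factors, 137 genes were called higher and 2745 lower, of the 8 genes 1 higher and 1 lower, and of the related lists 17 higher and 27 lower. The log2 fold change was -0.23 for Pnpla2, 0.48 for Abhd5 and -0.68 for G0s2, and -0.23 for Plin5. With hepatocyte marker factors the counts were 86 and 4252, 1 and 2, and 9 and 35. The values were -0.37 for Pnpla2, 0.34 for Abhd5, -0.84 for G0s2, -0.13 for Lipe, -0.055 for Mgll and -0.56 for Lipa. In the lists Scarb2 stood at -0.043, Plin2 at -0.068, Plin5 at -0.37, Ldah at -0.025 and Vegfa at -0.037. DESeq2 called 1117 genes higher, 50 of the lists higher and 17 lower, and Mgll higher at 0.39. Without CDAA replicates 1 and 2 (chosen after seeing the data), 175 genes were higher and 488 lower, 0 of the 8 genes higher, and 16 list genes higher and 1 lower. There the values were 0.84 for Pnpla3, 0.71 for Abhd5, 0.18 for Hilpda, 0.12 for Lipa and -0.54 for Srebf1. RLE and upper-quartile factors and no filter on low counts kept the calls of the 8 genes.

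With each library left out in turn, 76 to 688 genes were higher and 568 to 1456 lower, 0 to 2 of the 8 genes were higher, and of the lists 7 to 33 were higher and 3 to 12 lower. Of the SREBP-1c and ChREBP list 3 to 14 rose, of the other hydrolases 2 to 8, of the PPAR alpha list 0 to 4 and of the hypoxia list 1 to 3. Of the lysosomal list 0 rose and 1 to 4 fell, of the hypoxia list 0 to 2 fell, and of the monoacylglycerol list 0 to 2 fell. Values ran from 1.81 to 2.86 for Pnpla3, 0.58 to 0.91 for Abhd5, 0.31 to 0.43 for Mgll, -0.16 to 0.15 for Pnpla2, 0.08 to 0.40 for Lipe, -0.48 to -0.22 for G0s2, -0.43 to -0.04 for Hilpda and -0.27 to -0.04 for Lipa. Plin5 ran from -0.24 to 0.22, Srebf1 from -0.14 to 0.98, Tfeb from -0.19 to 0.023, and the log2 ratio of G0s2 to Hilpda from -0.42 to 0.20. Of the named list genes, Ces1e, Ces2a, Lpl, Ppt1, Me1, Scd1 and Pdk1 passed in all 6 of these fits, Cidec, Pla2g4a, Naaa, Adm and Mlxipl in 1, and Scarb2 in 0. The cause of these changes was not tested.

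Same-numbered libraries correlated at 0.0680, 0.124 and -0.0628 in their deviations from the group means. Not every library correlated best with its own number. With 3 libraries per group, these values cannot settle whether replicate numbers pair the libraries. With the replicate block, Pnpla3 and Abhd5 passed, 293 genes were higher and 1090 lower, and 7 list genes were lower. Depth was lowest for Pnpla3 and Hilpda, which had as few as 30 and 37 reads.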

Other observations

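Digestive lipase genes of the pancreas, which the liver is not known for, were read in a single library. Pnlip, the pancreatic triglyceride lipase gene, had 3939 reads in CDAA replicate 1 and 0 or 1 read in the other 5. Cel, the bile salt-stimulated lipase gene, had 2591 reads there and 0 or 1 elsewhere. Pnliprp1 had 1123 reads there and 0 elsewhere. None of these 3 genes entered the test, because the filter on low counts removed them, and their part in the values of the 8 genes was not tested.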
